A study of Mus musculus with 17 samples.

Results

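The 9 genes described here encode proteoglycans of the extracellular matrix, the small leucine-rich proteoglycans decorin (Dcn), biglycan (Bgn), asporin (Aspn), lumican (Lum), fibromodulin (Fmod), prolargin (Prelp), osteoglycin (Ogn) and podocan (Podn), and the large proteoglycan versican (Vcan). They were taken by gene symbol, and all 9 were found among the 21798 genes of the expression table and passed the filter on low values that left 16218 genes for testing. RNA came from the left ventricular apex of male C57Bl6/J mice, aged 7 to 8 weeks at surgery, 3 weeks after transverse aortic constriction (TAC), which narrows the aorta and overloads the left ventricle, or a Sham operation. Mice received by gavage either 29P, an oral prodrug directed at the αvβ3 integrin (50 μg/kg, 6 doses over 2 weeks from week 1 after surgery), or saline vehicle (Veh). There were 3 TAC Veh, 6 TAC 29P, 5 Sham Veh and 3 Sham 29P libraries, none with a genetic change, and libraries are named by the S number of their labels. The labels do not tie libraries to separate animals, so p-values measure the spread between libraries.

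Small leucine-rich proteoglycans have a curved core protein built of leucine-rich repeats, which binds fibrillar collagen and sets the spacing and diameter of its fibrils. Class I members (Dcn, Bgn) carry chondroitin or dermatan sulphate chains and bind TGF-β, whereas Aspn of the same class has a run of acidic residues in their place. Lum and Fmod of class II can carry keratan sulphate, Prelp of the same class is rich in basic residues, Ogn belongs to class III and Podn to class V. Versican binds hyaluronan through its N-terminal domain and carries chondroitin sulphate chains, and it is laid down in loose, provisional matrix. In the heart these genes are expressed mainly by fibroblasts and other stromal cells. In bulk tissue, a change in the number of such cells and a change in RNA per cell cannot be told apart.

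In the mm10 build the genes lie partly in pairs of neighbours. Aspn (chr13:49544443-49567565) and Ogn (chr13:49608046-49624501) are on the same strand with starts 63.6 kb apart, and both lie within Cenpp of the opposite strand. Dcn (chr10:97479609-97518143) and Lum (chr10:97565128-97572703) have starts 85.5 kb apart, and Prelp (chr1:133910304-133921414) and Fmod (chr1:134037254-134048277) have starts 116 kb apart on opposite strands. Bgn is on chrX:73483602-73495933 and Vcan on chr13:89655312-89742509. The annotated span of Podn (chr4:108014791-108096445) overlaps Scp2 on the same strand, so its counts may hold reads of that gene and are given as uncertain. Whether counting used strand is not given in the sources used here, so reads from the opposite-strand neighbours of Aspn, Ogn, Prelp (Gm15851) and Vcan (Gm16318, Gm4117) cannot be told apart from their own.

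Promoter sequence from RefSeq (GRCm38.p6) was matched for 7 of the 9 genes, with 2 entries for Podn. Shown here are the 250 bases before the start of Bgn, which made the largest gain in share of the 9-gene total after TAC, and of the neighbours Aspn and Ogn, of which Aspn rose and Ogn did not pass the test. The letters searched, on either strand, were TATAAA for the TATA box. For Sp1 factors they were GGGCGG, the GC box. For TEAD factors GGAATG was used, and capitals mark all matches. The 3 windows lie at chrX:73483351-73483600, chr13:49544193-49544442 and chr13:49607765-49608014, all on the plus strand. Starts here are those of RefSeq, which for Bgn and Ogn lie a little before the gene starts given above.
Bgn: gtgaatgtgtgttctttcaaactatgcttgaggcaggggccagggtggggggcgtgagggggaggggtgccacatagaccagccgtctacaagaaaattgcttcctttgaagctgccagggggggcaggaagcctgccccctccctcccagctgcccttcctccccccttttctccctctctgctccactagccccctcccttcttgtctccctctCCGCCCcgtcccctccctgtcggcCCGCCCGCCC
Aspn: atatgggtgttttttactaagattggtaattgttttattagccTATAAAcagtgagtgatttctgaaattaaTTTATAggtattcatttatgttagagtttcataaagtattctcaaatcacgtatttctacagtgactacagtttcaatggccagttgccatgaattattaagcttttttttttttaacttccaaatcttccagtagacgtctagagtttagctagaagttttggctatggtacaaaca
Ogn: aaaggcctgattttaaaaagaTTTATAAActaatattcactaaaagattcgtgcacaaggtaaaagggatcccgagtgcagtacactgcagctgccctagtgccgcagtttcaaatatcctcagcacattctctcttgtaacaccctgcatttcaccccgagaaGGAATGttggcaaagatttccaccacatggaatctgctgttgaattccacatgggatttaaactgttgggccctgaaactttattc
The Bgn window had 161 G or C among its 250 bases, against a median of 131 over 32536 mouse promoter windows of this length, and held 3 GC boxes, of which 2 overlap at its end, a match found in 33.0% of all windows. The Aspn window had 75 G or C, with 2 TATA box matches, first bases 207 and 178 before the start. The Ogn window had 105 G or C, with 2 overlapping TATA box matches 229 and 227 bases and a TEAD match 86 bases before the start. TATA box letters occurred in 12.3% and TEAD letters in 12.6% of all windows. SMAD (CAGACA) and AP-1 (TGANTCA) letters, held by 17% and 6.73% of all windows, had no match in the windows of the 7 matched genes.

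Values are CPM, the reads of a gene scaled to the same total in every library, and comparisons are on log2 of CPM. Estimated depth was 14.2 to 23.8 M reads, lowest in Sham 29P library S14. As a check of the labelled tissue, cardiomyocyte markers summed to 24230 to 39728 CPM over all libraries. The atrial markers (Myl7, Myl4, Sln, Bmp10, Stard10, Dkk3) summed to 2794 and 2252 CPM in Sham Veh libraries S19 and S20 and to 1785 CPM in TAC 29P library S18, against 6.98 to 39.9 CPM in the other 14. Among the defining markers, Sln was 162 to 441 CPM in these 3 libraries and at most 0.627 CPM elsewhere, and Bmp10 was at 514 CPM in S18 with at most 0.224 CPM elsewhere. These 3 libraries are also the only ones of the fourth series of label numbers. Mitochondrial-encoded genes took 29.1 to 40.0% of CPM in Sham and 23.6 to 29.4% in TAC libraries, without overlap except for TAC 29P library S1, and the median gene was 0.35 (log2) higher in TAC Veh than in Sham Veh. With factors from the trimmed mean of M values (TMM) that median was 0.02.

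With vehicle, 6 of the 9 genes rose after TAC, namely Bgn, Vcan, Aspn, Prelp, Lum and Fmod, and none fell. The background was high, since 22.5% of all genes tested were called higher in this comparison (limma, adjusted p of 0.05 or less). For 7 of the 9 genes every TAC Veh library lay above every Sham Veh library, as did 27.6% of all genes. The 6 calls were 7 without the atrial libraries S18, S19 and S20, where Dcn was added (limma adjusted p = 0.017), and they were 4 with TMM factors (Bgn, Aspn, Prelp and Vcan). They were 3 without TAC Veh library S2. Of all genes tested, 13.8% were called higher without the atrial libraries and 4.19% with TMM factors. Relative to the median gene, the log2 difference was 3.81 for Fmod, 1.47 for Bgn, 1.24 for Vcan, 1.07 for Aspn, 0.97 for Prelp, 0.64 for Lum, 0.28 for Dcn, -0.30 for Ogn and -0.53 for Podn. The number of all genes called higher and lower was 3648 and 310 on the CPM scale and 679 and 866 with TMM factors, that is 92.2% and 43.9% higher. The exact permutation tests below are two-sided, were made for 36 pairs of gene and comparison and are unadjusted, and with 3 against 5 libraries they cannot go below 0.0179.

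**Figure D1:**
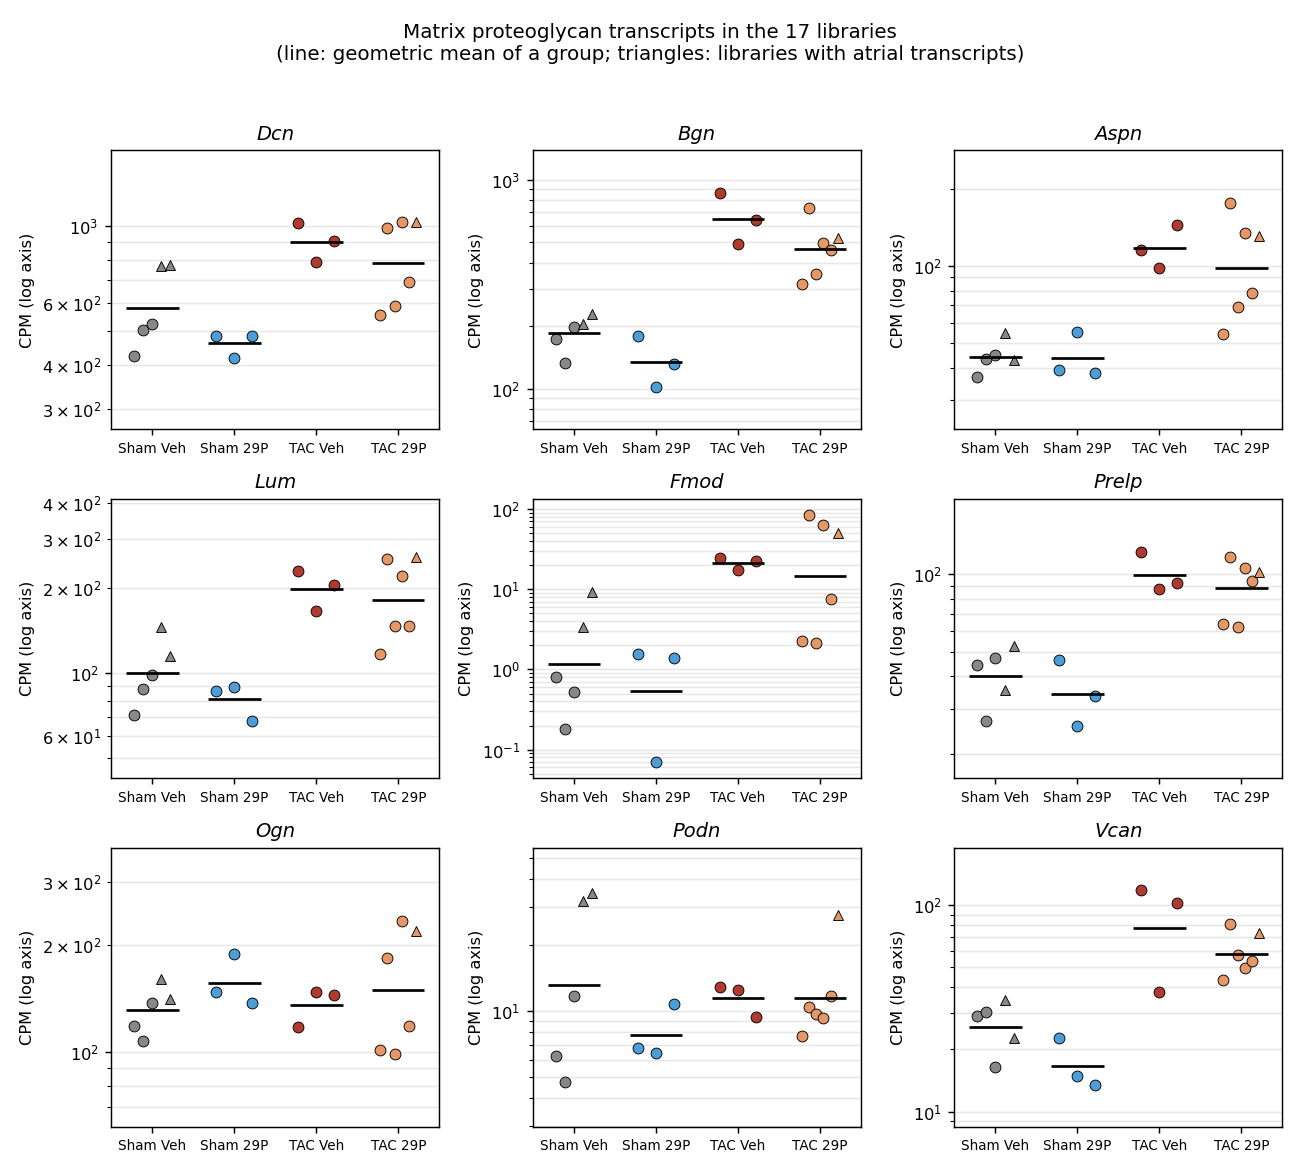
CPM on a log axis of each of the 9 genes in the 17 libraries, by group, where points are libraries, lines are geometric means and triangles are the 3 libraries with atrial transcripts. Dcn, Bgn, Lum, Fmod, Prelp and Vcan have every TAC library above every Sham library of the same treatment, Aspn has this with vehicle but not with 29P, Ogn has overlapping groups throughout, and the 3 highest Podn values are the 3 triangles.

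Among class I members, Dcn, a TGF-β-binding regulator of collagen fibrils, was the most abundant. Its Sham Veh values were 425 (S5), 505 (S6), 523 (S13), 766 (S19) and 771 CPM (S20). In TAC Veh Dcn was 1017 (S2), 787 (S12) and 902 CPM (S16). The lowest TAC library lay just above the highest Sham library, which is one of those with atrial transcripts. The log2 fold change of 0.63 ± 0.23 (SE) did not pass the adjusted threshold (limma adjusted p = 0.0518), and by exact permutation of the 8 libraries p = 0.0357.

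Bgn, the close relative of Dcn that also acts as a ligand of Toll-like receptors when soluble, had the smallest p of the 9 genes in this comparison. Its level in Sham Veh was 172 (S5), 132 (S6), 198 (S13), 203 (S19) and 226 CPM (S20). In TAC Veh it was 862 (S2), 492 (S12) and 639 CPM (S16), so that the groups were well apart. Bgn rose 3.53-fold (log2 fold change 1.82 ± 0.25 SE, limma adjusted p = 0.000672), which ranked 27 by p among all genes tested.

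Aspn, which binds collagen and TGF-β and is expressed in periosteum, tendon and fibrotic stroma, was 36.8 (S5), 43.4 (S6), 44.9 (S13), 54.5 (S19) and 43.0 CPM (S20) in Sham Veh. Its TAC Veh values were 115 (S2), 98.1 (S12) and 144 CPM (S16). All 3 TAC libraries exceeded the Sham libraries by a wide margin, and Aspn rose 2.66-fold (log2 fold change 1.41 ± 0.29 SE, limma adjusted p = 0.00521).

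Of the class II members, Lum, which regulates the assembly of collagen fibrils in cornea, skin and heart, was 71.2 (S5), 87.8 (S6), 98.8 (S13), 146 (S19) and 115 CPM (S20) in Sham Veh. In TAC Veh Lum was 231 (S2), 166 (S12) and 206 CPM (S16). The groups did not overlap, and Lum rose 1.98-fold (log2 fold change 0.99 ± 0.25 SE, limma adjusted p = 0.0140). This call was lost with TMM factors (limma adjusted p = 0.103) and without library S2 (limma adjusted p = 0.0900).

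Prelp, a basic heparin-binding protein that anchors basement membranes to collagen, was 44.5 (S5), 26.9 (S6), 47.2 (S13), 35.3 (S19) and 52.3 CPM (S20) in Sham Veh. Its TAC Veh values of 123 (S2), 87.5 (S12) and 92.4 CPM (S16) all lay above these. Prelp rose 2.48-fold (log2 fold change 1.31 ± 0.25 SE, limma adjusted p = 0.00311).

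Fmod, a collagen cross-linking regulator of tendon and cartilage, was the scarcest member in Sham, and over all 17 libraries its log2 CPM varied most. Sham Veh values were 0.799 (S5), 0.179 (S6), 0.523 (S13), 3.35 (S19) and 9.29 CPM (S20), so that both libraries with atrial transcripts were highest. In TAC Veh Fmod was 24.6 (S2), 17.2 (S12) and 22.3 CPM (S16). It rose by 4.16 ± 1.39 (SE) on the log2 scale (limma adjusted p = 0.0389), and by 5.65 without the 3 atrial libraries. With 1 CPM added to each value the log2 fold change was 3.03. The call was lost with TMM factors (limma adjusted p = 0.0789) and when any of S2, S5, S6, S12, S13 or S16 was left out.

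Vcan, the large hyaluronan-binding member, was 29.0 (S5), 30.5 (S6), 16.5 (S13), 34.7 (S19) and 22.7 CPM (S20) in Sham Veh. Its TAC Veh values were 119 (S2), 38.1 (S12) and 103 CPM (S16), with S12 only just above the highest Sham library. Vcan rose 3.00-fold (log2 fold change 1.59 ± 0.32 SE, limma adjusted p = 0.00471), and without S2 the limma adjusted p was 0.0547.

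Ogn and Podn did not pass the test. Ogn, the class III member that was first isolated from bone, was 119 (S5), 107 (S6), 137 (S13), 160 (S19) and 140 CPM (S20) in Sham Veh. In TAC Veh it was 118 (S2), 147 (S12) and 144 CPM (S16), within the Sham range. The log2 difference was 0.05 with a 95% interval of -0.49 to 0.58 (limma adjusted p = 0.898), and it was -0.27 with TMM factors. Podn, whose protein restrains smooth muscle proliferation, was 6.27 (S5), 4.74 (S6), 11.7 (S13), 31.8 (S19) and 34.8 CPM (S20) in Sham Veh. TAC Veh values of Podn were 12.9 (S2), 12.5 (S12) and 9.44 CPM (S16). They lay below the atrial libraries S19 and S20 and within the range of the Sham Veh group, with S16 below S13. The log2 difference of -0.19 (95% interval -1.33 to 0.96, limma adjusted p = 0.812) turned to 0.71 without the 3 atrial libraries (limma adjusted p = 0.0993). Among all genes, those nearest to Podn over the 17 libraries were Slc17a7 and Gja5, the latter a gap junction gene of atrial muscle and the conduction system (root mean square difference 0.31 and 0.32 on the log2 scale).

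With 29P in both arms, 7 of the 9 genes rose after TAC, namely Bgn, Vcan, Prelp, Lum, Aspn, Fmod and Dcn. In this comparison 31.4% of all genes tested were called higher. Groups did not overlap for 6 of the 9 genes, as for 25% of all genes. The 7 calls stayed at 7 without the atrial library S18, were 5 with TMM factors (Bgn, Fmod, Lum, Prelp and Vcan), and were 4 with the series of label numbers as a covariate (Bgn, Lum, Prelp and Vcan). They were 5 without Sham 29P library S14, where Dcn and Fmod were lost. Of all genes tested, 31.0% were called higher without the atrial libraries, 5.73% with TMM factors and 4.19% with the covariate. Relative to the median gene, which was 0.37 higher, the log2 difference was 4.39 for Fmod, 1.44 for Vcan, 1.42 for Bgn, 0.99 for Prelp, 0.80 for Aspn and for Lum, 0.39 for Dcn, 0.20 for Podn and -0.44 for Ogn. All genes called were 96.6% higher on the CPM scale and 54.1% with TMM factors. With 6 against 3 libraries the exact permutation test cannot go below 0.0119.

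**Figure D2:**
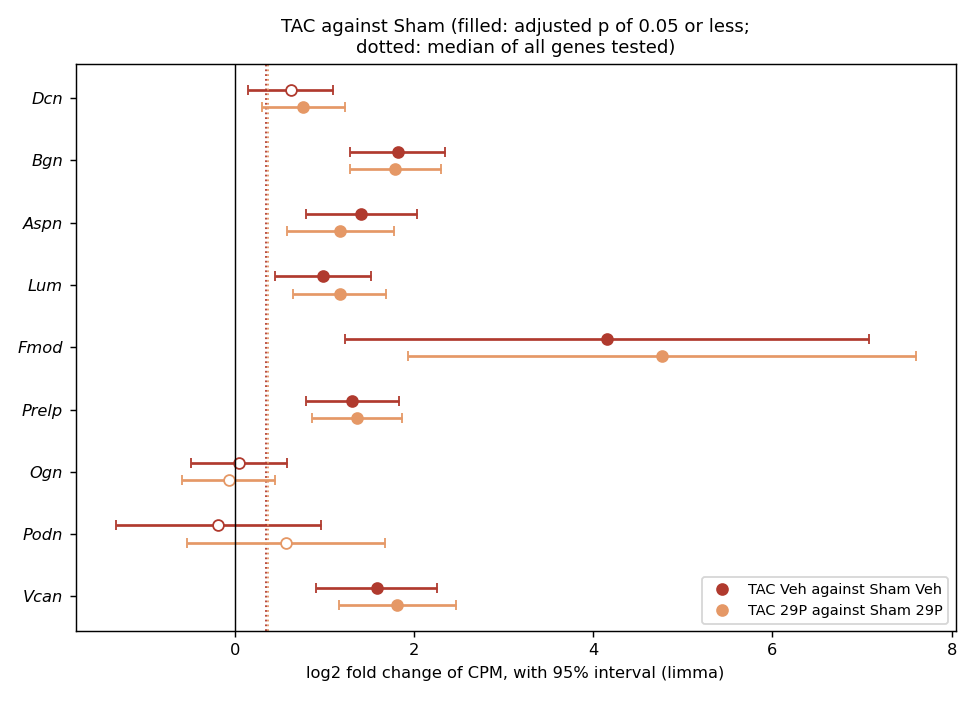
Log2 fold change of CPM after TAC for each gene in vehicle and in 29P mice, where points are limma estimates, bars are 95% intervals, filled points have an adjusted p of 0.05 or less and dotted lines are the median of all genes tested. Bgn has nearly equal estimates (1.82 and 1.79), Fmod has the widest intervals, and Ogn lies near 0 in both.

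Bgn was 179 (S4), 102 (S14) and 131 CPM (S15) in Sham 29P. In TAC 29P it ran from 317 (S1) through a median of 479 to 733 CPM (S3), above all Sham libraries. Its rise of 3.47-fold (log2 fold change 1.79 ± 0.24 SE, limma adjusted p = 0.000817) had the smallest p of the 9 and ranked 16 by p among all genes. Vcan was 22.8 (S4), 14.9 (S14) and 13.5 CPM (S15) in Sham 29P and 43.4 to 80.9 CPM in TAC 29P (median 55.8). It rose 3.52-fold (log2 fold change 1.81 ± 0.31 SE, limma adjusted p = 0.00210), again with no overlap. Prelp was 46.5 (S4), 25.7 (S14) and 33.5 CPM (S15) in Sham 29P. Its TAC 29P values ran from 62.5 (S8) to 117 CPM (S3) with a median of 98.1, and it rose 2.58-fold (log2 fold change 1.37 ± 0.24 SE, limma adjusted p = 0.00221).

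Dcn was 483 (S4), 419 (S14) and 486 CPM (S15) in Sham 29P, a narrow range, and 556 (S1) to 1024 CPM (S18) in TAC 29P, with a median of 838. It rose 1.70-fold (log2 fold change 0.77 ± 0.22 SE, limma adjusted p = 0.0180), a call lost with TMM factors (limma adjusted p = 0.205) and without S14 (limma adjusted p = 0.0969). Lum was 86.7 (S4), 89.8 (S14) and 68.0 CPM (S15) in Sham 29P and 117 to 259 CPM in TAC 29P (median 184). Here Lum rose 2.25-fold (log2 fold change 1.17 ± 0.25 SE, limma adjusted p = 0.00466). Aspn was 39.2 (S4), 55.1 (S14) and 38.3 CPM (S15) in Sham 29P. In TAC 29P Aspn ran from 54.3 (S1) to 176 CPM (S3), median 105, so that its lowest value lay just under the highest Sham 29P value. It rose 2.26-fold (log2 fold change 1.18 ± 0.28 SE, limma adjusted p = 0.00868), with a limma adjusted p of 0.0720 under TMM factors.

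Fmod was 1.57 (S4), 0.0706 (S14) and 1.41 CPM (S15) in Sham 29P, where the S14 value is about 1 read at its estimated depth. The 6 TAC 29P values were 2.28 (S1), 83.1 (S3), 2.13 (S8), 62.9 (S9), 7.62 (S11) and 50.8 CPM (S18). They span the low TAC 29P libraries S1 and S8, which lie near the Sham level, and the high libraries S3, S9 and S18, which exceed every TAC Veh library. Fmod rose by 4.77 ± 1.35 (SE) on the log2 scale (limma adjusted p = 0.0171), by 3.30 without S14 (limma adjusted p = 0.146) and by 3.18 with 1 CPM added.

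Ogn was 147 (S4), 189 (S14) and 138 CPM (S15) in Sham 29P. In TAC 29P it was 101 (S1), 183 (S3), 98.6 (S8), 234 (S9), 118 (S11) and 219 CPM (S18), on both sides of the Sham values. Its log2 difference was -0.07 with a 95% interval of -0.58 to 0.45 (limma adjusted p = 0.849). Podn was 6.78 (S4), 6.41 (S14) and 10.7 CPM (S15) in Sham 29P and 7.69 to 27.3 CPM in TAC 29P (median 10.1), where S18 was highest and the next value was 11.8. The log2 difference of Podn was 0.57 with a 95% interval of -0.54 to 1.68 (limma adjusted p = 0.409), and 0.32 without S18.

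Within each of the 4 series of label numbers, TAC libraries exceeded Sham libraries for Dcn, Bgn, Aspn, Lum, Fmod, Prelp and Vcan. The share of all genes that did the same was not counted. The median gene was higher after TAC by 0.35 (log2) with vehicle and by 0.37 with 29P. Here libraries were grouped by surgery alone, without regard to treatment. The log2 difference ranged over the 4 series from 1.30 to 2.28 for Bgn, from 1.25 to 1.46 for Prelp, from 0.41 to 0.89 for Dcn and from 3.19 to 6.48 for Fmod. For Ogn it was -0.13 to 0.55 and for Podn -0.28 to 0.79, with the lowest Podn value in the series that holds the atrial libraries. Only series 1 holds all 4 groups. Series 2 holds 1 TAC Veh library against 1 Sham Veh and 1 Sham 29P library. Series 3 is 1 TAC Veh library (S16) against 1 Sham 29P library (S15). Series 4 is 1 TAC 29P library (S18) against 2 Sham Veh libraries (S19 and S20). In series 3 and 4 surgery and treatment therefore differ together and cannot be separated. The highest differences of Bgn, Prelp and Dcn came from series 3. The lowest of these and of Fmod came from series 4.

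The make-up of the proteoglycan pool differed between Sham and TAC. Summed over the 9 genes, CPM were 1154 ± 255 (SD, n = 5) in Sham Veh, 945 ± 59.8 (n = 3) in Sham 29P, 2244 ± 388 (n = 3) in TAC Veh and 1947 ± 579 (n = 6) in TAC 29P. The share of Bgn was 16.3% ± 2.31 in Sham Veh and 29.2% ± 3.24 in TAC Veh. Dcn went the other way, with 51.5% ± 3.44 and 40.4% ± 1.98, and so did Ogn, with 11.7% ± 1.28 and 6.29% ± 1.75. Per kb of annotated exon, the order of the mean levels in Sham Veh was Dcn, Ogn, Lum, Bgn, Aspn, Prelp, Podn, Vcan and Fmod. Here the ranges over libraries overlapped between neighbours except from Dcn to Ogn and from Aspn to Prelp. In TAC Veh the order was Dcn, Bgn, Lum, Ogn, Aspn, Prelp, Fmod, Vcan and Podn, with a break between Lum and Ogn, between Aspn and Prelp and between Prelp and Fmod. On this scale Dcn was 102 ± 27.4 CPM per kb in Sham Veh and 155 ± 19.7 in TAC Veh, and Bgn 30.6 ± 5.84 and 109 ± 30.5.

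Ratios between pairs of members in the same library do not depend on how libraries are scaled. For 3 pairs and 4 comparisons, exact two-sided permutation p-values were adjusted over the 12 tests, and none reached an adjusted 0.05. The Bgn to Dcn ratio had a mean log2 of -1.66 ± 0.29 (SD) in Sham Veh, -1.79 ± 0.32 in Sham 29P, -0.47 ± 0.22 in TAC Veh and -0.76 ± 0.23 in TAC 29P. It was higher by 1.19 in TAC Veh than in Sham Veh (exact p = 0.0179, adjusted 0.0536) and by 1.03 in TAC 29P than in Sham 29P (exact p = 0.0119, adjusted 0.0536), without overlap, at the smallest p these group sizes allow. In linear terms there were 0.262 to 0.405 Bgn reads per Dcn read in Sham Veh and 0.625 to 0.847 in TAC Veh.

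The neighbours Aspn and Ogn diverged in the same way. Their log2 ratio was -1.57 ± 0.16 in Sham Veh and -0.21 ± 0.33 in TAC Veh, a difference of 1.37 (exact p = 0.0179, adjusted 0.0536). It was -1.84 ± 0.07 in Sham 29P and -0.60 ± 0.30 in TAC 29P, a difference of 1.24 (exact p = 0.0119, adjusted 0.0536). Within Sham, the ratio was lower by 0.27 with 29P than with vehicle, with no overlap (exact p = 0.0357, adjusted 0.0857). The Fmod to Lum ratio was -6.41 ± 2.03 in Sham Veh and -3.24 ± 0.03 in TAC Veh, so that the 3 TAC Veh libraries had nearly the same ratio while Sham Veh spread from -8.94 to -3.63. The difference of 3.17 had an exact p of 0.0536 (adjusted 0.107), and between TAC 29P and Sham 29P the difference was 3.60 (exact p = 0.0714, adjusted 0.122).

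**Figure D3:**
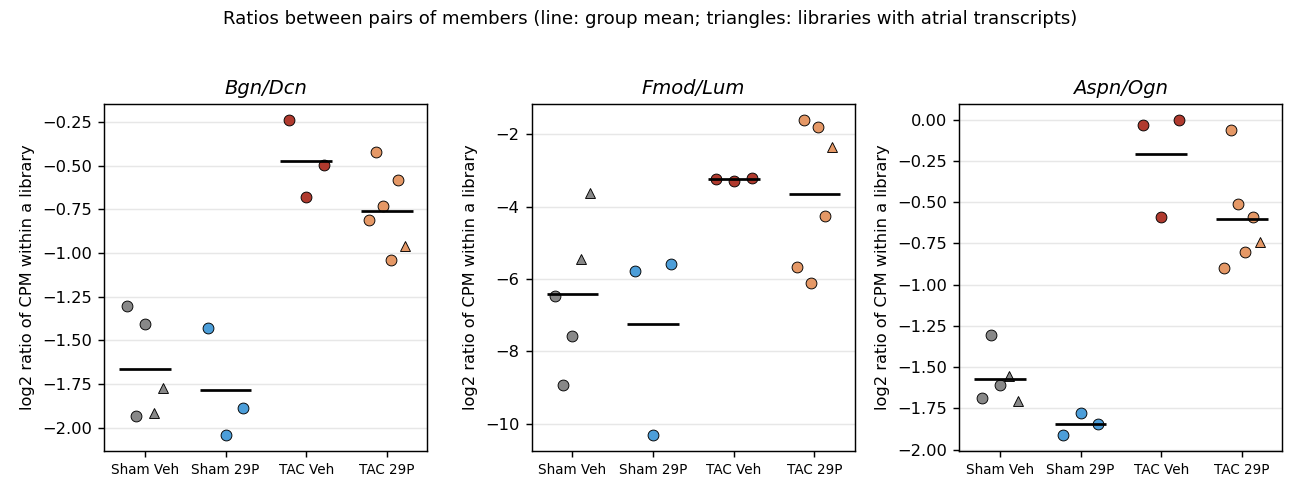
Log2 ratio of CPM within each library for Bgn to Dcn, Fmod to Lum and Aspn to Ogn, by group, where points are libraries, lines are group means and triangles are the 3 libraries with atrial transcripts. The Bgn to Dcn and Aspn to Ogn ratios separate TAC from Sham libraries of the same treatment, and the Fmod to Lum ratio spreads widely in both Sham groups and in TAC 29P.

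Libraries of the TAC 29P group differed widely from one another, and several members were high or low in the same libraries. S3, S9 and S18 held the 3 highest values of Dcn (984 to 1024 CPM), Aspn (131 to 176 CPM), Lum (220 to 259 CPM), Fmod, Prelp (102 to 117 CPM) and Ogn (183 to 234 CPM), and S1, S8 and S11 the 3 lowest. The SD of log2 CPM over the 6 libraries was 2.44 for Fmod, 0.66 for Aspn, 0.57 for Ogn, 0.41 for Dcn and 0.34 for Vcan. In TAC Veh it was 0.27 for Fmod, 0.28 for Aspn, 0.18 for Ogn and 0.18 for Dcn, and 0.89 for Vcan. The study had left out a TAC Veh library that clustered with Sham, so these spreads are not of groups chosen alike.

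Of all genes tested, the one nearest to Fmod over the 17 libraries was Comp, a cartilage and tendon matrix protein that binds collagen (root mean square difference 0.65 log2, Pearson r = 0.98 as a description). Comp was 2.46 (S1), 80.8 (S3), 2.18 (S8), 49.7 (S9), 10.4 (S11) and 54.8 CPM (S18) in TAC 29P, the same libraries high and low as for Fmod. In TAC Veh Comp was 34.5 (S2), 16.6 (S12) and 31.4 CPM (S16). The whole list of 5 valve and tendon-like markers, of which Comp is one, summed to 11.8 to 114 CPM in TAC 29P, 32 to 60.2 CPM in TAC Veh, 8.19 to 31.2 CPM in Sham Veh and 5.78 to 12.3 CPM in Sham 29P. Comp, picked from these same libraries, was 80.8 of the 114 CPM in S3, so the sum is not a separate likeness to Fmod. The part of these markers in the Fmod result was not tested. The gene second nearest to Fmod was Col8a2, a short-chain collagen, at a far larger distance of 1.24. The nearest genes to other members were Cd302 and Cd9 for Dcn, Pi16 and Enpp1 for Bgn, Tgfb2 and Lum for Aspn, Fam114a1 and Lpar1 for Lum, Ltbp3 and Islr for Prelp, Fstl1 and Uck2 for Vcan, and Etv1 and Zfp260 for Ogn. The distances of these were 0.10 to 0.26 on the log2 scale, and these likenesses share library and depth.

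**Figure D4:**
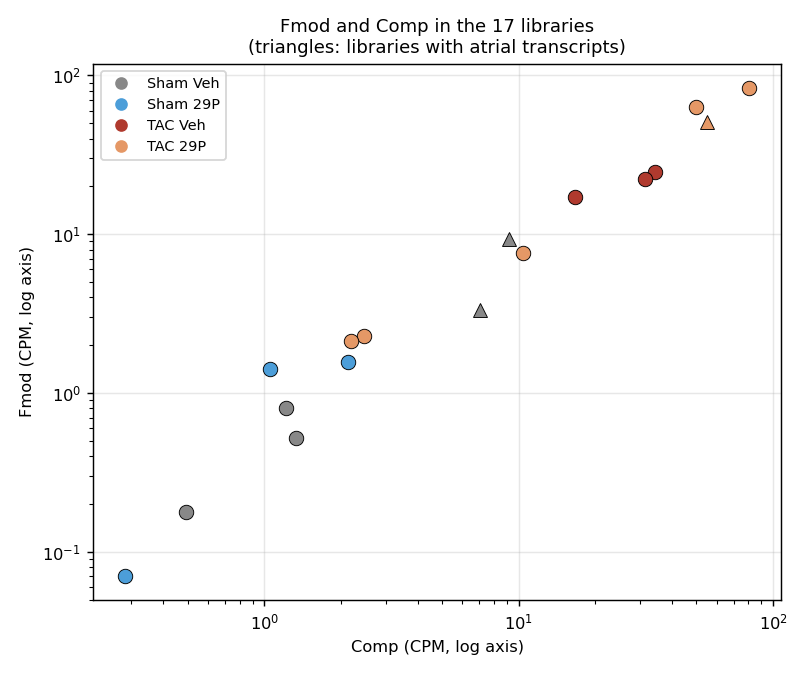
Fmod against Comp, both in CPM on log axes, with 1 point for each of the 17 libraries coloured by group and triangles for the 3 libraries with atrial transcripts. TAC 29P libraries lie at both ends of the TAC range, with S1 and S8 near the Sham libraries.

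Within TAC, none of the 9 genes passed the adjusted threshold for 29P against vehicle, where 0% of all genes tested did (limma). At an unadjusted p of 0.05, 0 of 9 members and 1.98% of all genes were called. Of the 9 estimates 7 were below 0, while 7210 of the 16218 genes tested were above 0 (median log2 difference -0.02). Bgn was lowest in p, with a log2 difference of -0.48 (95% interval -0.99 to 0.03, exact permutation p = 0.143), and the TAC 29P libraries S1, S8 and S11 lay under all TAC Veh libraries. Vcan differed by -0.41 (-1.06 to 0.25), Dcn by -0.19 (-0.65 to 0.27), Prelp by -0.18 (-0.68 to 0.33), Aspn by -0.26 (-0.85 to 0.34) and Lum by -0.13 (-0.65 to 0.39). Fmod (-0.53, -3.36 to 2.3) and Podn (0.00, -1.11 to 1.11) had wide intervals, and Ogn differed by 0.14 (-0.38 to 0.65). The groups overlapped for all 9 genes, and the intervals leave room for differences in either direction.

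In Sham mice, 29P against vehicle gave 0 of 9 calls at the adjusted threshold and 0 of 9 at the unadjusted one, against 0.00617% and 7.49% of all genes (limma). Estimates were below 0 for 8 of the 9 genes, while 6630 of the 16218 genes tested were above 0 (median log2 difference -0.06). Without the atrial libraries Aspn (0.07), Fmod (0.35) and Podn (0.14) were above 0, as was Ogn (0.38). Bgn, Dcn, Lum, Prelp and Vcan stayed below 0. With all libraries the lowest p was that of Vcan, with a log2 difference of -0.64 (95% interval -1.31 to 0.04, limma adjusted p = 0.675). Bgn differed by -0.45 (-0.98 to 0.07), and Ogn by 0.25 (-0.28 to 0.79). The difference between the TAC effect with 29P and that with vehicle passed neither threshold for any member, where 0.00617% and 2.84% of all genes did (limma adjusted p = 0.998 for each member). These comparisons share their Sham Veh, TAC Veh or 29P libraries with those above.

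**Figure D5:**
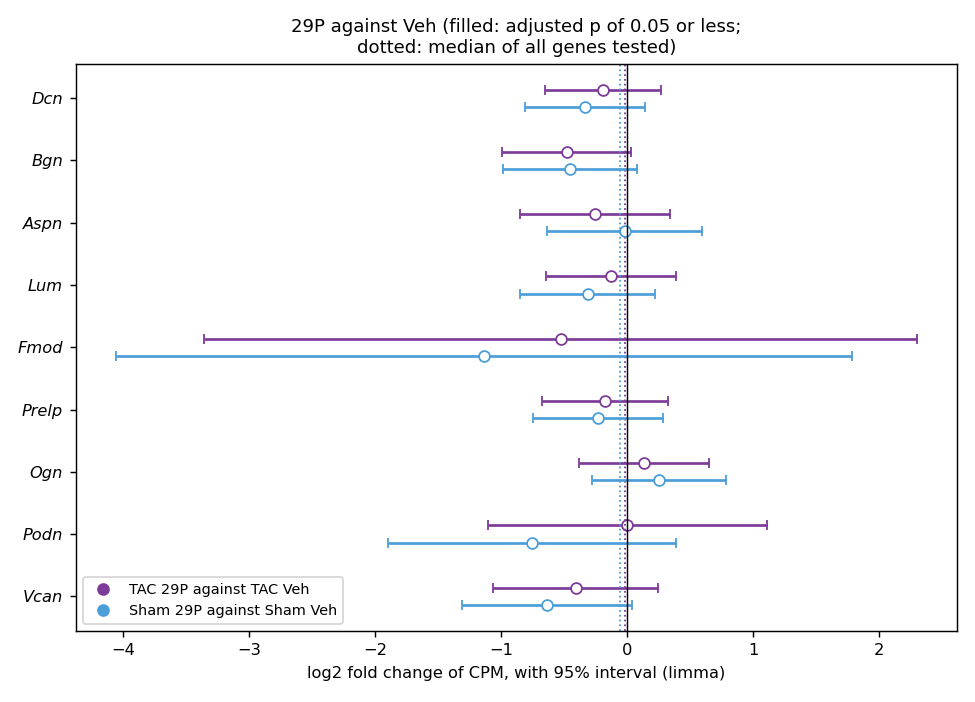
Log2 fold change of CPM for 29P against vehicle within TAC and within Sham, where points are limma estimates, bars are 95% intervals, open points did not pass an adjusted p of 0.05 and dotted lines are the median of all genes tested. All 18 points are open, and Fmod and Podn have the widest intervals.

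Other genes of the family and its pathway were counted by list. The counts of genes that rose stand beside the 22.5% of all genes tested that were called higher in TAC Veh and the 31.4% with 29P. Of 12 further family members with values, 8 passed the filter. Of these 2 rose in TAC Veh, a share near that of all genes, namely Ecm2, a leucine-rich matrix protein encoded beside Aspn (34.9 ± 1.94 to 59.9 ± 6.16 CPM, SD, log2 fold change 0.78 ± 0.21 SE, limma adjusted p = 0.0164), and Tsku (2.73 ± 0.477 to 5.25 ± 1.92 CPM, limma adjusted p = 0.0410). With 29P 3 of 8 rose, also near the share of all genes, and Omd was added (1.13 ± 0.729 to 3.15 ± 1.99 CPM, limma adjusted p = 0.0377). Acan, Chad, Chadl, Epyc and Nyx averaged at most 1.09 CPM in every group and did not pass. Optc, Podnl1, Ncan and Bcan, at a mean of at most 0.19 CPM, were not tested.

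Among 25 genes that build the linker and the chondroitin or dermatan sulphate chains, 12 rose and none fell in TAC Veh, with a median log2 fold change of 0.64 beside 0.35 over all genes tested. Examples were Xylt1, which starts the chain (2.73 ± 0.892 to 6.33 ± 1.39 CPM, limma adjusted p = 0.0121), Chpf2, a chain polymerising factor (9.79 ± 3.55 to 20.2 ± 6.79 CPM, limma adjusted p = 0.0121), and Papss1, which makes the sulphate donor (10.5 ± 1.97 to 17.1 ± 3.06 CPM, limma adjusted p = 0.0121). With 29P 17 of 25 rose (median 0.75 beside 0.37). Of 4 tested genes of keratan sulphate synthesis 3 rose in TAC Veh (B4galt1, Chst1 and Chst2, median 0.79) and 1 with 29P (B4galt1). Of 8 hyaluronan and link genes 3 rose in TAC Veh (Cemip2, Hmmr and Cd44). With 29P 3 of 8 rose, near the 31.4% of all genes, and these were Hmmr, Cd44 and Hyal2 (limma adjusted p = 0.0129, named after its values were seen), while Cemip2 did not pass (limma adjusted p = 0.0595).

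Collagens that the small proteoglycans bind rose for 5 of 6 genes in TAC Veh (median 1.72) and 6 of 6 with 29P (median 1.89). Col5a2 went from 34.0 ± 3.26 CPM in Sham Veh to 131 ± 47.9 CPM in TAC Veh (limma adjusted p = 0.00126). Of 15 ligands and receptors 12 rose in each comparison (median 0.95 and 0.99), among them Tgfb2 (11.3 ± 1.15 to 33.2 ± 9.70 CPM, limma adjusted p = 0.00158) and Fbn1, the fibrillin of microfibrils. Of 12 proteases 3 rose in TAC Veh, namely Bmp1, which processes the propeptides of small proteoglycans (24.0 ± 6.40 to 53.7 ± 8.43 CPM, limma adjusted p = 0.00377), Mmp2 and Mmp14, and 5 rose with 29P. The protease counts are near the 22.5% and 31.4% of all genes. The 3 lists had no gene that fell.

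Markers of cell types were counted beside the same shares of all genes, 22.5% and 31.4% called higher. Fibroblast markers rose for 7 of 10 genes in TAC Veh and 8 of 10 with 29P (median log2 fold change 0.66 and 0.80), and their sum was 748 to 1546 CPM in Sham Veh, 594 to 1089 CPM in Sham 29P, 1682 to 2772 CPM in TAC Veh and 1256 to 2457 CPM in TAC 29P. Within this sum Postn went from 73.4 ± 17.9 (SD) CPM in Sham Veh to 845 ± 387 CPM in TAC Veh. The 3 markers not called in TAC Veh were Dpt, Gsn and Tcf21 (log2 fold change 0.15, 0.27 and 0.49, named after their values were seen). Macrophage markers rose for 5 of 6 genes in both comparisons, endothelial markers for 1 of 5 and 4 of 5, and smooth muscle and pericyte markers for 3 of 6 and 2 of 6. Of these, 1 of 5 endothelial markers in TAC Veh and 2 of 6 smooth muscle and pericyte markers with 29P are about the share of all genes. Valve and tendon-like markers rose for 3 of 5 in both. Cardiomyocyte markers had 1 of 6 higher and 1 of 6 lower in each. The higher count does not exceed the share of all genes. Of the 16218 genes tested 310 were called lower in TAC Veh and 181 with 29P. None of 5 tested atrial and 3 tested mesothelial markers was called in either comparison, and the mesothelial list summed to at most 14 CPM in any library. The part of these cell types in the proteoglycan values was not tested.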

How the data were processed

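Poly(A) RNA from the left ventricular apex was sequenced in 17 libraries. Per the submitters' processing notes, STAR 2.3.7, Partek and the mm10 build were used, and the authors deposited CPM with 0.0001 added, and the counting tool and strand setting are not given in the sources used here. The study left out further libraries, among them a TAC Veh library that clustered with Sham. From the low CPM values, 79.1 to 81.9% of those below 20 reads lay within 0.02 of whole multiples of a step, so read counts were not restored and depth is an estimate.

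Genes with CPM of 0.5 or more in at least 3 libraries (16218) were taken as log2 of the deposited CPM and fitted by limma 3.58.1 (R 4.3.3) with 1 mean per group, a variance trend and Benjamini-Hochberg adjustment over all genes, with calls at 0.05. For single genes and log2 ratios, libraries were permuted between the groups (exact, two-sided). Alternatives were TMM and median-of-ratios factors, totals without the 16 mitochondrial genes, constants of 0.1 and 1, other filters, no trend, only the groups compared, the series of label numbers as covariate, the unadjusted threshold and each library left out. Leaving out the 3 atrial libraries was added after seeing the data. The fit was tested on simulated data. The members and lists were chosen with earlier results of these data known. Beyond the 9 members, the text names, for each list, up to 3 genes each way with the smallest adjusted p among those called in TAC Veh against Sham Veh (mean CPM of at least 1), every measured gene of the family, and the 2 genes nearest each member. Lengths and gene spans come from GENCODE vM21 (same starts as the deposited table for all 9 genes). No 2 libraries held identical values.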

Additional observations from a re-analysis of the deposited data

Results flagged for a closer look

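Podn in TAC 29P was flagged because library S18, at 27.3 CPM, stood far from the other 5 libraries (7.69 to 11.8 CPM), with a gap to the nearest value of 0.665 of the whole range on the log2 scale, above the limit of 0.625 for 6 libraries. It was the only one of 24 sets of values so flagged, and chance flags about 1 set in 20. The same library held 1785 CPM of atrial markers, and the part of these in the Podn value was not tested.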

How the results depend on the processing

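With the series of label numbers as a covariate, calls between TAC 29P and Sham 29P fell from 7 to 4. The share of all genes tested that were called higher fell from 31.4% to 4.19%. Between TAC Veh and Sham Veh the covariate gave 7 calls, with Dcn added (limma adjusted p = 0.0160). There 19.2% of all genes tested were called higher. Leaving out 1 library at a time gave 3 to 7 calls between TAC Veh and Sham Veh (3 without TAC Veh library S2, against 6 with all), 5 to 7 between TAC 29P and Sham 29P, and 0 in the other comparisons. Over the settings for single members, direction and call held in 139 of 170 cases for TAC Veh against Sham Veh and in 166 of 179 for TAC 29P against Sham 29P, and no called fold change turned its direction. Estimates near 0 did turn.

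For TAC Veh against Sham Veh, the log2 difference of Ogn was -0.27 with TMM factors, -0.11 without mitochondrial totals and -0.28 with median-of-ratios factors, and -0.025 to 0.15 with 1 library left out. That of Podn was 0.47 with the covariate, 0.71 without the atrial libraries and -0.55 to 0.17 with 1 library left out. Ogn between TAC 29P and Sham 29P was -0.20 to 0.07 with 1 library left out. For TAC 29P against TAC Veh, Podn was -0.13 with the covariate, -0.25 without the atrial libraries and -0.25 to 0.12 with 1 library left out, and Fmod was -1.03 to 0.028. For Sham 29P against Sham Veh, Aspn was 0.032 with TMM factors, 0.026 without mitochondrial totals, 0.034 with median-of-ratios factors, 0.048 with the covariate, 0.067 without the atrial libraries and -0.19 to 0.072 with 1 library left out. Fmod was then 0.042 with the covariate, 0.35 without the atrial libraries and -1.91 to 0.33 with 1 library left out, and Podn 0.14 without the atrial libraries.

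Without the 3 atrial libraries, the log2 ratio of Bgn to Dcn was higher by 1.07 in TAC Veh than in Sham Veh and that of Aspn to Ogn by 1.33. In Sham 29P against Sham Veh, Aspn to Ogn then differed by -0.31 and Fmod to Lum by 0.43. With 3 against 3 libraries the exact p cannot go below 0.1. With 1 library left out, Bgn to Dcn in Sham 29P against Sham Veh was -0.30 to 0.0063, Fmod to Lum was -0.80 to 0.10 for TAC 29P against TAC Veh and -1.64 to 0.72 for Sham 29P against Sham Veh, and Aspn to Ogn was -0.58 to -0.29 and -0.31 to -0.21. The cause of these changes was not tested. Fmod could not be fitted under the filter of CPM of 1 in every library, which it fails. Depth limits Fmod in Sham, with about 1 read in Sham 29P library S14. No paired analysis was made, since no label pairs single libraries of different groups. The series of label numbers, which hold TAC and Sham libraries, entered as the covariate above.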
